A study of Mus musculus with 15 samples.

Results

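The long noncoding genes 2900052N01Rik, Gm13373, AI504432, Neat1, Malat1, and Gas5 were examined in blood monocytes and in macrophage subsets of the mouse small intestine. These are 6 of the 19456 genes of the deposited counts table, of which 1808 carry a long noncoding type in the GENCODE M21 annotation. All 6 were matched by Ensembl identifier, had counts, and passed the filter on low counts, which left 15802 genes and 1070 long noncoding genes. 2900052N01Rik, Gm13373, and AI504432 were chosen by their differences between these populations in these libraries, so their levels and fold changes are given as a description, with standard errors and with no test. Neat1, Malat1, and Gas5 are broadly expressed, and no measured value was given as the reason for listing them.

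RNA sequencing was performed on 15 libraries of sorted cells from adult male C57BL/6 mice. Ly6Chi monocytes came from blood (3 libraries). The macrophages came from the small intestine in 4 libraries of each subset, Tim-4-CD4- cells with neither surface marker, Tim-4-CD4+ cells with CD4 alone, and Tim-4+CD4+ cells with both. Cells of 3 mice were pooled for each library, except that monocyte replicate 2 pooled 4, so the spread between libraries is that between pools. The labels name no transgene or treatment for these mice, and the comparisons ask how the macrophage subsets differ from Ly6Chi blood monocytes and from each other.

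Long noncoding genes are transcribed like messenger RNA but have no known protein product. Neat1 is the RNA scaffold of paraspeckles, nuclear bodies that hold RNA-binding proteins, and Malat1 accumulates in nuclear speckles beside splicing factors. Gas5 is a host gene whose introns carry small nucleolar RNAs (snoRNAs), and its spliced RNA is degraded by nonsense-mediated decay and can bind the glucocorticoid receptor.

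In GRCm38, 2900052N01Rik lies at chr9:46913493-46927366 on the plus strand, between the coding genes Bud13 and Cadm1, which are 614 and 603 kb away. Gm13373 lies at chr2:28315016-28324050 on the minus strand, 84.3 kb from Olfm1. AI504432 lies at chr3:107039504-107054347 on the plus strand, and starts 1.43 kb after the end of Kcna3, which is on the same strand. Neat1 (chr19:5824708-5845478) and Malat1 (chr19:5795690-5802672) are neighbors on the minus strand, 22.0 kb apart. Gas5 lies at chr1:161034422-161038539 on the plus strand, and the start of Zbtb37, on the opposite strand, overlaps its span without sharing an exon base. AI504432 lies inside the span of the antisense gene Gm27008, again with 0 shared exon bases, and 453 exon bases of Malat1 are shared with Gm37376 on the opposite strand. Small RNA genes on the same strand also share exon bases. These are Gm27533, Gm27505, and Gm28006 with Neat1 (152, 110, and 122 bases) and Gm27694 with Malat1 (86 bases). For Gas5 they are snoRNA genes of 60 to 84 shared bases each, as its joined exons cover 3760 of the 4118 bases of its span. Whether HTSeq used strand is not given in the sources used here, and Gm37376 is not listed in the counts used here. It is therefore not known whether reads on the bases shared with Gm37376 were counted for Malat1.

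The 3' ends of Malat1 and of the long form of Neat1 are shown because the libraries were made from poly-A RNA and these transcripts are not ended by ordinary polyadenylation. Both are known to be cut by RNase P and protected by a triple helix of U-rich stretches with an A-rich end. In these sequences, read from GENCODE M21 transcripts, capitals mark the longest stretch of letters that the last 90 bases of both ends share, of 16 letters, and the final GCAAAA. The last 11 letters before the cut are also identical. The Malat1 sequence is chr19:5795952-5796071 on the minus strand, and its last 30 bases begin the small RNA that is cut off. The long form of Neat1 ends at chr19:5824708-5824797 and the short form at chr19:5842307-5842396, both on the minus strand. In the short form, capitals mark a polyadenylation signal.
Malat1: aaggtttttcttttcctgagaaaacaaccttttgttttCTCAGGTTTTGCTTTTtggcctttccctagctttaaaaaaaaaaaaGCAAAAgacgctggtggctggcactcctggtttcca
Neat1 long form: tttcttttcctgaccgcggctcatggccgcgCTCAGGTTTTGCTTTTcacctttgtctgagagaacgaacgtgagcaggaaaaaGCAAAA
Neat1 short form: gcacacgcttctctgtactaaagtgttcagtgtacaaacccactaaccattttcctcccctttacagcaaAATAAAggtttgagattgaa

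The AATAAA of the short form of Neat1 ended 14 bases before its annotated end. No AATAAA stood in the last 90 bases of the long form or of Malat1 before its cut, where Malat1 instead has a run of 12 A. The long form is 20771 bases and the short form 3004, and counts per gene do not tell them apart. How well poly-A selection captured each RNA was not tested.

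RefSeq promoter windows on GRCm38.p6, from 250 bases before to 50 bases after a start site, matched an annotated start of 3 of the 6 genes. The windows of 2900052N01Rik (chr9:46913353-46913652, plus strand) and Gas5 (chr1:161034916-161035215, plus strand) are shown because of the genes with such a window the former had the largest fold changes between subsets and the latter passed the test in no comparison. Capitals mark motif matches and, in Gas5, the run of pyrimidines at the start site.
2900052N01Rik: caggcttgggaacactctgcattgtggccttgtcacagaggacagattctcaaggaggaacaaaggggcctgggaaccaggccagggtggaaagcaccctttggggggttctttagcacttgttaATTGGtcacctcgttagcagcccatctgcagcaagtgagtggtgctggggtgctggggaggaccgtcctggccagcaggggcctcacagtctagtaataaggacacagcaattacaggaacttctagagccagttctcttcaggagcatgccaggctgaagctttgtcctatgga
Gas5: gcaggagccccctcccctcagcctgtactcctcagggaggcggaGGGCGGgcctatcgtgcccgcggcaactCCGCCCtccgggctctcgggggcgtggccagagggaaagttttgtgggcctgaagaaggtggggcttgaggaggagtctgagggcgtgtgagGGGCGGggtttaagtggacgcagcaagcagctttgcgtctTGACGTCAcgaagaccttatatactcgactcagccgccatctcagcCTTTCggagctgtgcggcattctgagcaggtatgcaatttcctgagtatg

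Motifs were searched as letters on both strands, and the share of all 32851 windows that hold each motif is given. These were TATAAA (13.6%), CCAAT (37.4%), the GC box CCGCCC (35.7%), the E-box CACGTG (7.15%), the cAMP response element TGACGTCA (1.79%), the AP-1 site TGANTCA (7.81%), the PU.1 core GAGGAAG (13.6%), the C/EBP site TTGCNNAA (10.8%), and the MAF half-site TGCTGA (19.5%). The window of 2900052N01Rik held 1 of these, a CCAAT on the minus strand 125 to 121 bases before the start. The window of Gas5 held 3 GC boxes and TGACGTCA 46 to 39 bases before the start, with no match overlapping another. The Malat1 window held none of the 9 motifs. At this start site, Gas5 begins with C in a run of 5 pyrimidines, and 2.51% of windows have C at the start and a run at least as long. Such a tract is the mark of genes translated with ribosomal proteins. RefSeq places 10 starts of Gm13373 between 2.08 and 80.6 kb upstream of its GENCODE start, and the counts cover the GENCODE exons.

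Libraries held between 39388763 and 151510641 counts on genes (median 63249039). Timd4 was at 336 to 390 CPM (counts scaled to a common depth with TMM factors) in Tim-4+CD4+ libraries and at 4.47 CPM or less in all others, and Cd4 was at 484 CPM or more in both CD4+ subsets and at 39.2 CPM or less elsewhere. Ly6c2 was at 820 CPM or more in monocytes and at 3.46 CPM or less in macrophages, so the sorting genes followed the labels. Tim-4+CD4+ replicate 1 stood apart from the other libraries of its subset, with a chi-square of counts per gene of 236 to 303 against them, compared with 42.8 to 83.0 among the rest, so values that rest on it are also given without it. The 5 plasma cell markers summed to between 2833 and 7091 CPM over the macrophage libraries and to at most 3.23 CPM in monocytes, with ranges that overlapped between the subsets. The 5 mesenchyme markers summed to between 59.6 and 90.1 CPM in Tim-4-CD4-, 71.5 and 93.2 CPM in Tim-4-CD4+, and 98.4 and 138 CPM in Tim-4+CD4+ macrophages, with each of the 5 above 1 CPM in every macrophage library. The 4 endothelium markers summed to between 118 and 141, 190 and 238, and 306 and 370 CPM in the same order, of which Pecam1 made up between 102 and 335 CPM. The 6 enteric neuron and glia markers summed to between 1.23 and 2.39 CPM in Tim-4- and to between 5.61 and 7.57 CPM in Tim-4+ libraries, mostly from Elavl4. The 6 dendritic cell markers summed to between 43.2 and 89.7 CPM in Tim-4-CD4-, 30.8 and 39.1 CPM in Tim-4-CD4+, and 29.5 and 45.8 CPM in Tim-4+CD4+ macrophages. Markers of T cells, B cells, epithelium, and granulocytes summed to at most 13.1, 72.4, 31.8, and 17.3 CPM.

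Against monocytes, 65.4% of the 15802 genes tested differed in Tim-4-CD4- macrophages, while 69.8% did so in Tim-4-CD4+ cells and 70.9% in Tim-4+CD4+ cells, by edgeR's quasi-likelihood test with a threshold of 0.05 on the adjusted p-value. Between the macrophage subsets, 10.1% differed for Tim-4-CD4+ against Tim-4-CD4- cells, 23.1% for Tim-4+CD4+ against Tim-4-CD4- cells, and 3.41% for Tim-4+CD4+ against Tim-4-CD4+ cells. In Tim-4+CD4+ against Tim-4-CD4- macrophages, 14.5% of 1070 long noncoding and 25.3% of 13440 coding genes differed. Of the long noncoding genes called in that comparison, 111 were higher in Tim-4+CD4+ macrophages and 44 were lower, and the shares of both kinds of gene were not compared at equal counts. Of Neat1, Malat1, and Gas5, 1 passed the test for Tim-4-CD4+ against Tim-4-CD4-, 1 for Tim-4+CD4+ against Tim-4-CD4-, and none for Tim-4+CD4+ against Tim-4-CD4+ macrophages. Against monocytes, 1 passed in Tim-4-CD4- and 2 in each CD4+ subset. These counts are to be read beside the background shares, and 3 genes are too few to set apart from them.

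**Figure D1:**
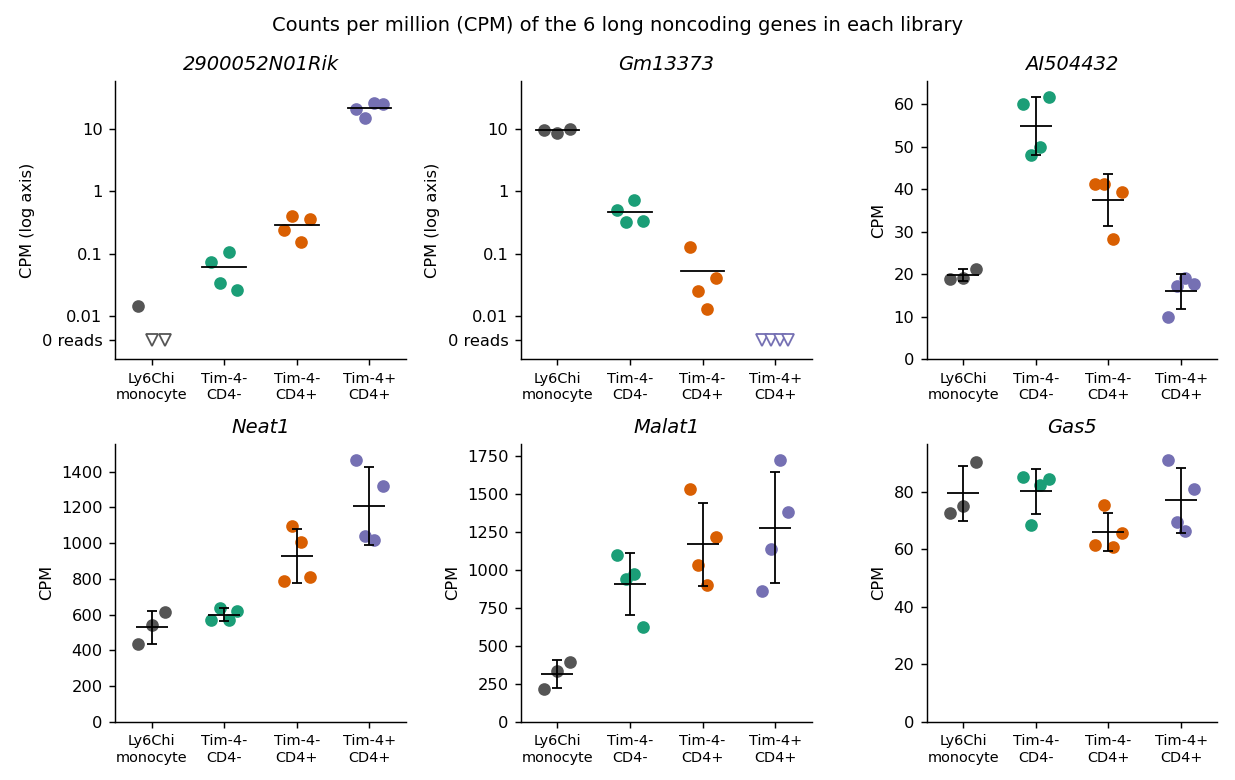
CPM of each of the 6 genes (y axis, on a log scale for 2900052N01Rik and Gm13373) in the 15 libraries by population (x axis), with 1 point per library, open triangles for libraries with 0 reads, bars at the mean of each population that has no library at 0 on the log scale, and error bars of 1 SD in the panels with a linear axis. 2900052N01Rik sits between 15.1 and 27.0 CPM in Tim-4+CD4+ libraries and at 0.405 CPM or less in all others, while Gas5 sits between 61.0 and 91.0 CPM in all 15.

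2900052N01Rik was found almost wholly in Tim-4+CD4+ macrophages. It was at 21.2, 15.1, 27.0, and 25.3 CPM in the 4 Tim-4+CD4+ libraries. In Tim-4-CD4+ libraries it was at 0.238, 0.405, 0.153, and 0.365 CPM, and in Tim-4-CD4- libraries at 0.0730, 0.0335, 0.108, and 0.0259 CPM. Monocytes gave 2 reads in replicate 1 and none in the other 2 libraries. No libraries of different populations overlapped, and the lowest Tim-4+CD4+ library was far above the highest library of any other population. Between monocytes and Tim-4-CD4- macrophages this rests on single reads and on depth. Monocyte replicate 1 had 2 reads (0.0142 CPM) and Tim-4-CD4- replicate 4 had 1 read (0.0259 CPM). The log2 fold change was 6.25 (standard error 0.32) for Tim-4+CD4+ against Tim-4-CD4+ macrophages, 8.49 (0.39) for Tim-4+CD4+ against Tim-4-CD4- macrophages, and 2.23 (0.47) for Tim-4-CD4+ against Tim-4-CD4-. The last value rests on few reads, 95 in all against 12, for a ratio of 4.93 at equal depth (95% interval 2.69 to 9.87, for counting error only). Against monocytes the log2 fold change of Tim-4+CD4+ macrophages was 11.39 (0.53). Only 2 reads were found in monocytes, both in replicate 1, and the ratio of summed counts at equal depth was 3114 (95% interval 862 to 25720, for counting error only). In bulk RNA, fewer cells that express a gene and less RNA in each cell cannot be told apart. The mesenchyme, endothelium, and enteric neuron and glia markers were also highest in Tim-4+CD4+ libraries, with no mesenchyme marker above 54.3 CPM, and their part in the level of 2900052N01Rik was not tested.

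None of the 4 coding neighbors of 2900052N01Rik passed the test between the CD4+ subsets. Cadm1, a cell adhesion molecule 603 kb away on the same strand, was at 132, 108, 123, and 131 CPM in Tim-4-CD4- libraries. It was at 267, 263, 238, and 291 CPM in Tim-4-CD4+ and at 267, 315, 335, and 347 CPM in Tim-4+CD4+ libraries, while monocytes were at 0.319 CPM or less. Cadm1 was higher in Tim-4-CD4+ than in Tim-4-CD4- macrophages (1.10 on the log2 scale with a standard error of 0.18, adjusted p = 0.00061 in edgeR). Between the CD4+ subsets, where 2900052N01Rik differed by 6.25, the log2 fold change of Cadm1 was 0.25 (standard error 0.17, 95% interval -0.11 to 0.62, adjusted p = 0.53 from edgeR). Nxpe4 was higher in both CD4+ subsets than in Tim-4-CD4- macrophages, with log2 fold changes of 0.54 (adjusted p = 0.0026 from edgeR) in Tim-4-CD4+ and 0.32 (adjusted p = 0.036 from edgeR) in Tim-4+CD4+, the latter no longer passing without Tim-4-CD4- replicate 2 or 3 or Tim-4+CD4+ replicate 2 or 4 (adjusted p up to 0.093). Bud13, a splicing factor, and Zpr1, a zinc finger protein, passed in no comparison of macrophage subsets. Over the 12 macrophage libraries, the genes most like 2900052N01Rik in log2 CPM were Uaca (Pearson's r = 0.99), Cdc42bpa (0.99), a kinase of the cytoskeleton, and Ptpn14 (0.98), a tyrosine phosphatase. Uaca averaged 2.14 CPM in Tim-4-CD4-, 4.22 CPM in Tim-4-CD4+, and 22.8 CPM in Tim-4+CD4+ macrophages, and 2900052N01Rik averaged 0.0600, 0.290, and 22.2 CPM.

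Gm13373 ran the opposite way, from monocytes down to none. It was at 9.90, 8.83, and 10.3 CPM in the 3 monocyte libraries. In Tim-4-CD4- libraries it was at 0.511, 0.318, 0.733, and 0.336 CPM, and in Tim-4-CD4+ libraries it had 7, 1, 1, and 6 reads, or 0.128, 0.0253, 0.0128, and 0.0405 CPM. No Tim-4+CD4+ library had a read, where 3 counts in each library would be 0.0383 CPM on average. No populations overlapped. The log2 fold change was -4.35 (standard error 0.41) between Tim-4-CD4- macrophages and monocytes and -3.25 (0.49) in Tim-4-CD4+ against Tim-4-CD4- macrophages, the latter -3.96 without Tim-4-CD4+ replicate 1. Against a floor of 3 counts in each library, Gm13373 was at least 253-fold lower in Tim-4+CD4+ macrophages than in monocytes. It was at least 12.4-fold lower than in Tim-4-CD4- macrophages. Against Tim-4-CD4+ macrophages the bound was 1.35-fold, and it rested on Tim-4-CD4+ replicate 1 at 0.128 CPM. Replicates 2 and 3 of that subset lay below the floor of 0.0383 CPM and replicate 4, at 0.0405 CPM, close to it. The bound against Tim-4-CD4+ macrophages therefore does not hold without replicate 1.

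Olfm1, which encodes a secreted olfactomedin glycoprotein and lies 84.3 kb from Gm13373 on the opposite strand, fell in the same order of populations. It was at 141, 162, and 153 CPM in monocytes and at 26.3, 19.7, 27.0, and 23.9 CPM in Tim-4-CD4- libraries. Tim-4-CD4+ libraries were at 5.72, 4.93, 4.53, and 4.79 CPM and Tim-4+CD4+ libraries at 1.74, 2.14, 1.85, and 0.879 CPM. Each step passed the test, with log2 fold changes of -2.65 (standard error 0.18, adjusted p = 1.2e-09 from edgeR) from monocytes to Tim-4-CD4-, -2.28 (0.18, adjusted p = 5.6e-07) to Tim-4-CD4+, and -1.57 (0.18, adjusted p = 5.1e-05) from there to Tim-4+CD4+ macrophages. Gm13373 fell more steeply than Olfm1, from 0.0640 reads per read of Olfm1 on average in monocytes to 0.0192 in Tim-4-CD4- macrophages and 0.00971 in Tim-4-CD4+ macrophages, values that were not tested. The other neighbors of Gm13373 behaved differently. Fcnb, which encodes ficolin B of the lectin complement pathway, was at 3.62 to 7.75 CPM in monocytes and had at most 1 read in any macrophage library. Mrps2, a mitochondrial ribosomal protein, passed in no comparison of subsets, and Ppp1r26 had at most 12 reads in a library and was not tested. Over the macrophage libraries the genes most like Gm13373 were Tiam1 (Pearson's r = 0.99), an exchange factor for Rac, Ncl (0.98), which encodes nucleolin, and Napsa (0.98), an aspartic protease, with 8 of the 12 libraries at 7 reads of Gm13373 or fewer.

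AI504432 was highest in Tim-4-CD4- macrophages, lower in Tim-4-CD4+, and lowest in Tim-4+CD4+ macrophages. It was at 59.9, 48.1, 49.9, and 61.6 CPM in Tim-4-CD4- libraries. It was at 41.1, 41.2, 28.3, and 39.2 CPM in Tim-4-CD4+ and at 9.94, 17.1, 19.004, and 17.7 CPM in Tim-4+CD4+ libraries. Monocytes were at 18.9, 19.1, and 21.3 CPM, so that the level did not run in 1 direction from monocytes through the subsets, and Tim-4+CD4+ and monocyte libraries overlapped. Log2 fold changes were 1.47 (standard error 0.19) between Tim-4-CD4- macrophages and monocytes, -0.55 (0.17) in Tim-4-CD4+ against Tim-4-CD4- macrophages, and -1.23 (0.17) in Tim-4+CD4+ against Tim-4-CD4+ macrophages. In Tim-4+CD4+ against Tim-4-CD4- macrophages the value was -1.79 (0.17), and -1.61 without Tim-4+CD4+ replicate 1, the lowest library. The summed dendritic cell markers reached their highest level in Tim-4-CD4- libraries as well but overlapped those of Tim-4+CD4+ libraries. Flt3 was at 4.41 to 17.9 CPM in Tim-4-CD4- and at 0.415 to 0.798 CPM in Tim-4+CD4+ libraries. Itgae was at 3.21 to 24.7 against 1.28 to 2.97 CPM and Ccr7 at 3.43 to 14.3 against 1.05 to 2.59 CPM, also without overlap. Clec9a (24.7 to 36.2 against 21.2 to 37.1 CPM), Xcr1, and Zbtb46 overlapped between these subsets. The part of the dendritic cell markers in the levels of AI504432 and Gm13373 was not tested.

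Kcna3, which encodes the voltage-gated potassium channel Kv1.3 and ends just before AI504432 starts, ran in the same order. It was at 24.0, 16.7, 19.3, and 19.7 CPM in Tim-4-CD4- libraries and at 12.4, 11.5, 12.1, and 12.8 CPM in Tim-4-CD4+ libraries. Tim-4+CD4+ libraries were at 1.08, 7.04, 6.70, and 7.497 CPM, and monocytes at 7.28, 7.59, and 10.4 CPM. Kcna3 was lower in Tim-4+CD4+ than in Tim-4-CD4- macrophages (-1.84 on the log2 scale with a standard error of 0.37, adjusted p = 0.0015 in edgeR). The differences of Tim-4-CD4+ against Tim-4-CD4- (-0.71, standard error 0.36, adjusted p = 0.26) and of Tim-4+CD4+ against Tim-4-CD4+ macrophages (-1.14, standard error 0.36, adjusted p = 0.12) did not pass in edgeR's test. Without Tim-4+CD4+ replicate 1, in which both genes were lowest of all libraries, these were -0.70 (adjusted p = 0.00097) and -0.79 (adjusted p = 0.0026), and both passed in edgeR's test, as did the former when only those 2 subsets were fitted (-0.69, adjusted p = 0.0012). There were 2.05 to 3.57 reads of AI504432 per read of Kcna3 in 14 of the libraries and 9.20 in Tim-4+CD4+ replicate 1. Whether reads past the end of Kcna3 fall on AI504432, which is on the same strand, was not tested. Farther away, the potassium channel gene Kcna2 and the tetraspanin gene Cd53 passed in no comparison of subsets, although Cd53 did so in Tim-4+CD4+ against Tim-4-CD4- without monocyte replicate 1 or Tim-4+CD4+ replicate 2, and Prok1 had at most 19 reads in a library and was not tested. The genes most like AI504432 over the macrophage libraries were Csgalnact2 (Pearson's r = 0.99), an enzyme of chondroitin sulfate synthesis, Lancl2 (0.98), and Tmem123 (0.98).

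**Figure D2:**
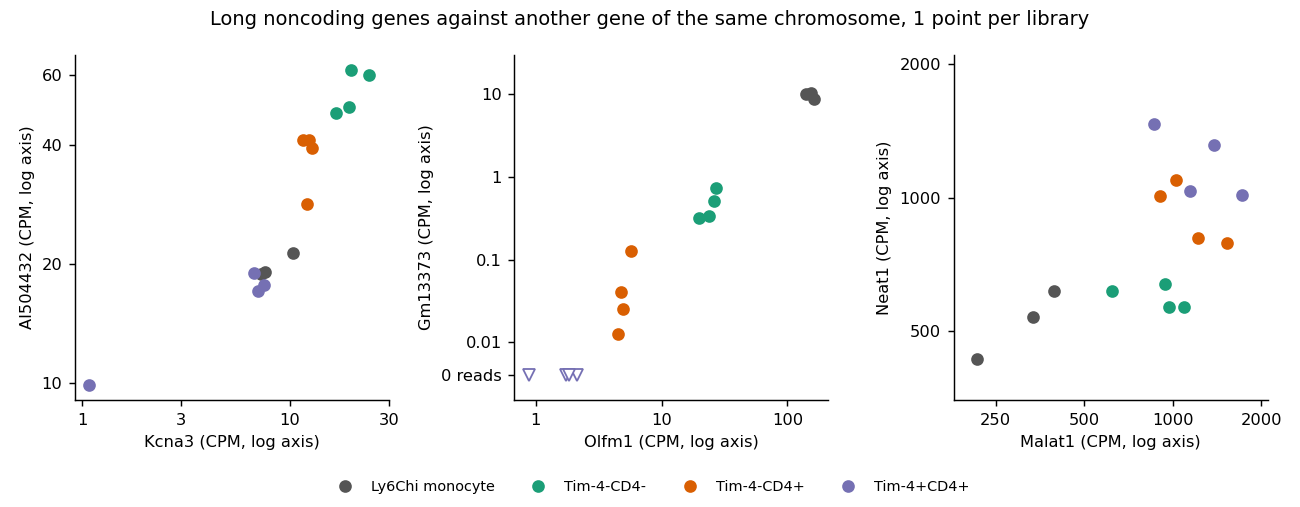
CPM (both axes on a log scale) of AI504432 against Kcna3, of Gm13373 against Olfm1, and of Neat1 against Malat1, with 1 point per library colored by population and open triangles for libraries with 0 reads of Gm13373. AI504432 and Kcna3 are lowest together in Tim-4+CD4+ replicate 1 (9.94 and 1.08 CPM), Gm13373 and Olfm1 fall together over the 4 populations, and the macrophage libraries spread in Neat1 and Malat1 with no common line.

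Neat1 was higher in both CD4+ subsets than in Tim-4-CD4- macrophages. It was at 568, 639, 567, and 618 CPM in Tim-4-CD4- libraries and at 433, 539, and 616 CPM in monocytes. Tim-4-CD4+ libraries were at 790.2, 1097, 1007, and 812 CPM, and Tim-4+CD4+ libraries at 1464, 1038, 1014, and 1317 CPM. All libraries of the CD4+ subsets were above all others, while the CD4+ subsets overlapped each other. Compared with Tim-4-CD4- macrophages, Neat1 was 2.02-fold higher in Tim-4+CD4+ (1.01 on the log2 scale with a standard error of 0.14, adjusted p = 5.6e-05 in edgeR) and 1.55-fold higher in Tim-4-CD4+ macrophages (0.63, 0.14, adjusted p = 0.0076). Between the CD4+ subsets the difference did not pass (0.38, standard error 0.14, 95% interval 0.09 to 0.68, adjusted p = 0.19 from edgeR). Against monocytes, Neat1 was higher in Tim-4-CD4+ (log2 fold change 0.81, adjusted p = 2e-04 from edgeR) and Tim-4+CD4+ (1.19, adjusted p = 3.6e-06) but did not pass in Tim-4-CD4- macrophages (0.18, standard error 0.15, adjusted p = 0.32). The 4 calls of Neat1 passed under all 22 alternatives. The mesenchyme and endothelium markers were highest in Tim-4+CD4+ libraries as well, and their part in the level of Neat1 was not tested.

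Of 20 paraspeckle protein genes tested, 1 was higher and 4 were lower in Tim-4+CD4+ than in Tim-4-CD4- macrophages (25.0% called, compared with 23.1% of all genes), with a median log2 fold change of -0.09 against 0.00 over all genes. Ss18l1 rose by 0.83 on the log2 scale (adjusted p = 0.00011 from edgeR), and Hnrnpa1, which encodes an RNA-binding protein of splicing, fell by 0.55 (adjusted p = 1.8e-05). Nudt21, a subunit of the cleavage factor that chooses polyadenylation sites, fell by 0.45 (adjusted p = 0.0016 from edgeR). Nono, a core protein that binds Neat1, fell by 0.23 (adjusted p = 0.025), and Hnrnpk fell by 0.27 on the log2 scale (adjusted p = 0.038 from edgeR). In Tim-4-CD4+ against Tim-4-CD4- macrophages 1 gene was higher and 1 lower of the 20 (10.1% of all genes were called), and between the CD4+ subsets none of the 20 passed in edgeR. Of the coding neighbors, Frmd8, which stabilizes a protease partner at the cell surface and lies 4.22 kb from Neat1, passed in no comparison of subsets, and there were 8.39 to 10.5 reads of Neat1 per read of Frmd8 in Tim-4-CD4- and 19.1 to 26.8 in Tim-4+CD4+ libraries. Ltbp3, which encodes a binding protein of latent TGF-beta, went the other way from Neat1, at 20.9 to 29.1 CPM in Tim-4-CD4- and 9.07 to 10.5 CPM in Tim-4+CD4+ libraries (-1.39 on the log2 scale with a standard error of 0.14, adjusted p = 1.3e-06 in edgeR). The genes most like Neat1 over the macrophage libraries were Rgs3 (Pearson's r = 0.98), a regulator of G protein signaling, Zmynd15 (0.97), and the homeobox gene Hoxb4 (0.97).

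Malat1 was higher in every macrophage subset than in monocytes, and no comparison of subsets passed. It was at 215, 335, and 393 CPM in monocytes and at 1095, 938, 973, and 622 CPM in Tim-4-CD4- libraries. Tim-4-CD4+ libraries were at 1530.3, 1029, 901, and 1217 CPM, and Tim-4+CD4+ libraries at 864, 1140.1, 1723, and 1381 CPM. Every macrophage library was above every monocyte library, and the 3 subsets overlapped. The log2 fold change against monocytes was 1.53 (standard error 0.26, with adjusted p = 7.5e-05 in edgeR) in Tim-4-CD4-, 1.89 (0.26, adjusted p = 7.8e-06) in Tim-4-CD4+, and 2.02 (0.27, adjusted p = 3.7e-06) in Tim-4+CD4+ macrophages. The value was 0.37 (95% interval -0.12 to 0.85, adjusted p = 0.39) in Tim-4-CD4+ against Tim-4-CD4- and 0.13 (-0.36 to 0.61, adjusted p = 0.84 in edgeR) in Tim-4+CD4+ against Tim-4-CD4+ macrophages. In Tim-4+CD4+ against Tim-4-CD4- macrophages it was 0.49 (0.0044 to 0.98, adjusted p = 0.14 in edgeR), and 0.64 without Tim-4+CD4+ replicate 1 and then passed (adjusted p = 0.047 from edgeR).

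The proportion of Neat1 to Malat1, which are adjacent and transcribed in the same direction, was also compared. Monocytes had 2.01, 1.61, and 1.57 reads of Neat1 per read of Malat1. Tim-4-CD4- libraries had 0.519, 0.681, 0.583, and 0.993, Tim-4-CD4+ libraries 0.516, 1.07, 1.12, and 0.667, and Tim-4+CD4+ libraries 1.69, 0.910, 0.589, and 0.954. Both Tim-4- subsets lay below all monocyte libraries, as did the Tim-4+CD4+ libraries except replicate 1 at 1.69, and the 3 subsets overlapped. The mean log2 ratio was lower by 1.35 in Tim-4-CD4- macrophages than in monocytes (exact permutation test, two-sided p = 0.057, the smallest that 4 against 3 libraries allow, and 0.17 adjusted over 6 comparisons). With this few libraries none of the 6 comparisons of the ratio could pass after adjustment. Of 22 nuclear speckle genes tested, 1 was higher and 1 lower in Tim-4+CD4+ than in Tim-4-CD4- macrophages (9.09% called, compared with 23.1% of all genes, with a median log2 fold change of -0.01). Clk4, a kinase of splicing factors, rose by 0.44 on the log2 scale (adjusted p = 0.0011), and Srsf7, a splicing factor, fell by 0.37 (adjusted p = 0.035 from edgeR). In Tim-4-CD4+ against Tim-4-CD4- macrophages Clk4 alone passed (4.55%, compared with 10.1% of all genes), and between the CD4+ subsets none of the 22 did in edgeR. Against monocytes, where Malat1 was higher in every subset, 5 to 8 speckle genes were higher and 7 to 8 lower, or 54.5 to 68.2% of the list compared with 65.4 to 70.9% of all genes. Slc25a45, a gene of a mitochondrial carrier 75.1 kb from Malat1, passed in no comparison of subsets. The genes most like Malat1 over the macrophage libraries were 5330406M23Rik (Pearson's r = 0.91), Rasal2 (0.91), and Gm26601 (0.90).

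Gas5 passed the test in no comparison. It was at 72.6, 75.2, and 90.5 CPM in monocytes and at 85.3, 68.5, 82.3, and 84.6 CPM in Tim-4-CD4- libraries. Tim-4-CD4+ libraries were at 61.6, 75.3, 61.0, and 65.6 CPM, and Tim-4+CD4+ libraries at 91.0, 69.6, 66.4, and 80.9 CPM. All populations overlapped. In Tim-4+CD4+ against Tim-4-CD4- macrophages the log2 fold change was -0.06 (standard error 0.11, 95% interval -0.30 to 0.18, with adjusted p = 0.77 in edgeR). Tim-4-CD4+ macrophages had the lowest mean, with log2 fold changes of -0.28 (95% interval -0.53 to -0.04, adjusted p = 0.14) against Tim-4-CD4- macrophages and -0.27 (-0.53 to -0.01, adjusted p = 0.061) against monocytes in edgeR. The latter passed under 4 of the 22 alternatives, with adjusted p-values from 0.035 to 0.39 over them from edgeR or DESeq2. Tim-4+CD4+ against Tim-4-CD4+ macrophages gave 0.23 (adjusted p = 0.38) in edgeR, and the values against monocytes were 0.01 (adjusted p = 0.93) in Tim-4-CD4- and -0.04 (adjusted p = 0.76) in Tim-4+CD4+ macrophages.

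**Figure D3:**
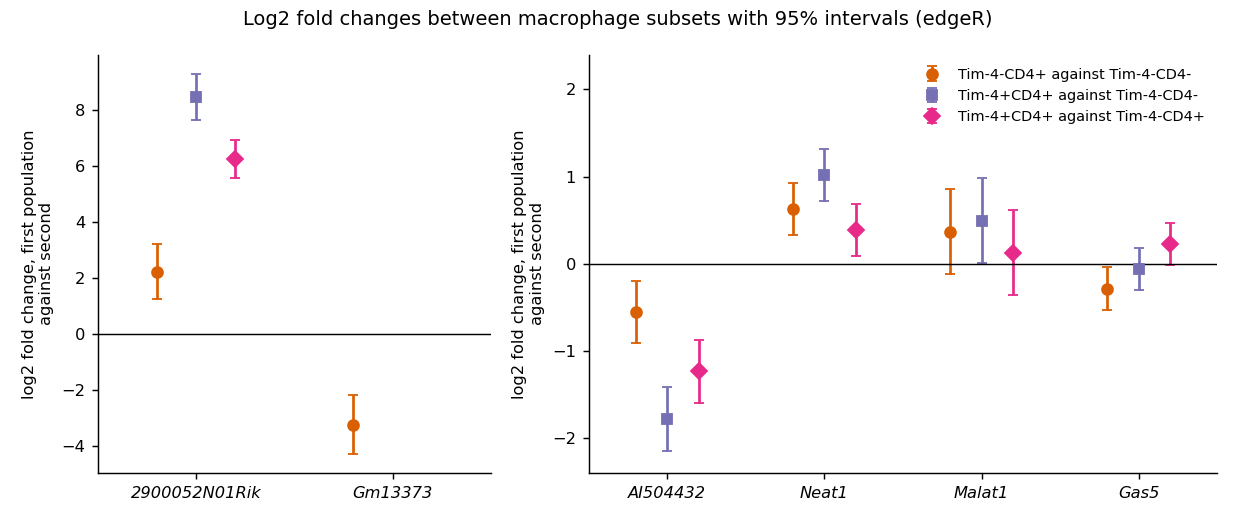
Log2 fold changes (y axes, of different ranges) of the genes (x axes) in the 3 comparisons of macrophage subsets, with points for the edgeR estimates and bars for 95% intervals. Comparisons of Gm13373 with Tim-4+CD4+ macrophages are left out because no read was found there. The values of 2900052N01Rik reach 8.49, AI504432 lies below 0 and Neat1 above 0 throughout, and the intervals of Gas5 stay within -0.53 and 0.47.

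Of 22 other host genes of snoRNAs listed, 17 were in the table and 16 were tested, and 1 was higher and none lower in Tim-4+CD4+ than in Tim-4-CD4- macrophages (6.25% called, compared with 23.1% of all genes, with a median log2 fold change of -0.03). This was Snhg20, which rose by 1.36 on the log2 scale (adjusted p = 0.0016 from edgeR). In Tim-4-CD4+ macrophages Zfas1 fell by 0.53 relative to Tim-4-CD4- (adjusted p = 0.032 from edgeR) and no other host gene passed (6.25%, compared with 10.1% of all genes), and none of the 16 passed between the CD4+ subsets. Against monocytes, 6 to 8 host genes were higher and 2 lower in each subset, or at most 62.5% of the list compared with 65.4 to 70.9% of all genes. The host gene Snhg5 was also the gene most like Gas5 over the macrophage libraries (Pearson's r = 0.91), followed by Anapc13 (0.91), a subunit of the anaphase-promoting complex, and Pdpn (0.91), which encodes podoplanin and averaged 0.327 CPM or less. Of the 14 nonsense-mediated decay factors, 1 passed in Tim-4+CD4+ against Tim-4-CD4- macrophages (7.14%, compared with 23.1% of all genes), where Magoh, a core protein of the exon junction complex, fell by 0.54 (adjusted p = 0.0016 from edgeR). Magoh also fell, by 0.46, in Tim-4-CD4+ relative to Tim-4-CD4- macrophages (adjusted p = 0.012, 7.14% of the list compared with 10.1% of all genes), and none of the 14 passed between the CD4+ subsets in edgeR. Of the neighbors of Gas5, Zbtb37, Serpinc1, Rc3h1, and Cenpl passed in no comparison of subsets. Without Tim-4-CD4+ replicate 3, Zbtb37 was higher in Tim-4-CD4+ than in Tim-4-CD4- macrophages (0.66 on the log2 scale, adjusted p = 0.042 in edgeR), and without Tim-4+CD4+ replicate 3, Rc3h1, which encodes the RNA-binding protein Roquin-1, passed in Tim-4+CD4+ against Tim-4-CD4- macrophages (adjusted p = 0.01 in edgeR).

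Of 16 genes for the glucocorticoid receptor and its targets, 4 were higher and 2 lower in Tim-4+CD4+ than in Tim-4-CD4- macrophages (37.5% called, compared with 23.1% of all genes, with a median log2 fold change of -0.14). Pdk4, a kinase that restrains pyruvate dehydrogenase, rose by 2.67 on the log2 scale (adjusted p = 0.007), from 0.160 to 1.05 CPM. Cd163, the scavenger receptor for hemoglobin, rose by 2.02 (adjusted p = 1.1e-06 from edgeR), from 137 to 552 CPM on average. Txnip, a regulator of glucose uptake, rose by 0.97 (adjusted p = 1.3e-06 from edgeR). Cd163 and Txnip also differed between the CD4+ subsets, by 1.53 (adjusted p = 9.6e-05) and 0.47 (adjusted p = 0.0074 from edgeR). In Tim-4+CD4+ against Tim-4-CD4- macrophages Sgk1 also rose, by 0.64 (adjusted p = 0.00092 from edgeR). Errfi1 fell by 0.75 (adjusted p = 5.6e-06 from edgeR) and Fkbp5, an early target of the receptor, by 0.73 (adjusted p = 0.045). The targets thus did not move in 1 direction. In Tim-4-CD4+ against Tim-4-CD4- macrophages 2 were higher and 2 lower (25.0%, compared with 10.1% of all genes). Against monocytes, 10 to 11 were higher and 2 to 3 lower in each subset, or 75.0 to 87.5% of the list compared with 65.4 to 70.9% of all genes.

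Levels between genes were compared per kilobase of exon (FPKM, from CPM and the exon length in GENCODE M21). Malat1 averaged 45.0 FPKM in monocytes, 130 FPKM in Tim-4-CD4- macrophages, 167 FPKM in Tim-4-CD4+ macrophages, and 183 FPKM in Tim-4+CD4+ macrophages. It ranked between 3 and 5 of 1070 long noncoding genes in each population, in all 4 behind Gm42418 and Ifi30. Ifi30 encodes a lysosomal thiol reductase although the annotation types it as a processed transcript. AW112010 was also above Malat1 in both Tim-4- subsets (147 FPKM in Tim-4-CD4- and 169 FPKM in Tim-4-CD4+) but not in Tim-4+CD4+ macrophages (178 FPKM). Over the macrophages Gm26532 came next after Malat1, at 133 FPKM. Neat1 averaged 28.8, 44.6, and 58.2 FPKM in the subsets and ranked 9 or 10 in all 4 populations. Gas5 averaged between 17.5 and 21.3 FPKM and ranked from 11 to 21, and its level depends on the exon model, as the mean over macrophages was 19.8 FPKM with all exons joined and 29.1 FPKM on the longest transcript. AI504432 averaged 9.85, 6.73, and 2.86 FPKM in the subsets. 2900052N01Rik moved from rank 1019 in Tim-4-CD4- (0.0186 FPKM) to rank 56 in Tim-4+CD4+ macrophages (6.85 ± 1.64 FPKM, SD, n = 4), where it was above AI504432. Gm13373, at 14.8 ± 1.16 FPKM (SD, n = 3) in monocytes, ranked 23 there and 302 in Tim-4-CD4- macrophages. Together the 6 genes took 13.0 to 19.7% of all long noncoding counts in monocytes. The share was 21.3 to 27.6% for Tim-4-CD4-, 21.5 to 35.4% for Tim-4-CD4+, and 28.5 to 35.6% for Tim-4+CD4+ libraries, nearly all of it from Malat1 and Neat1.

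**Figure D4:**
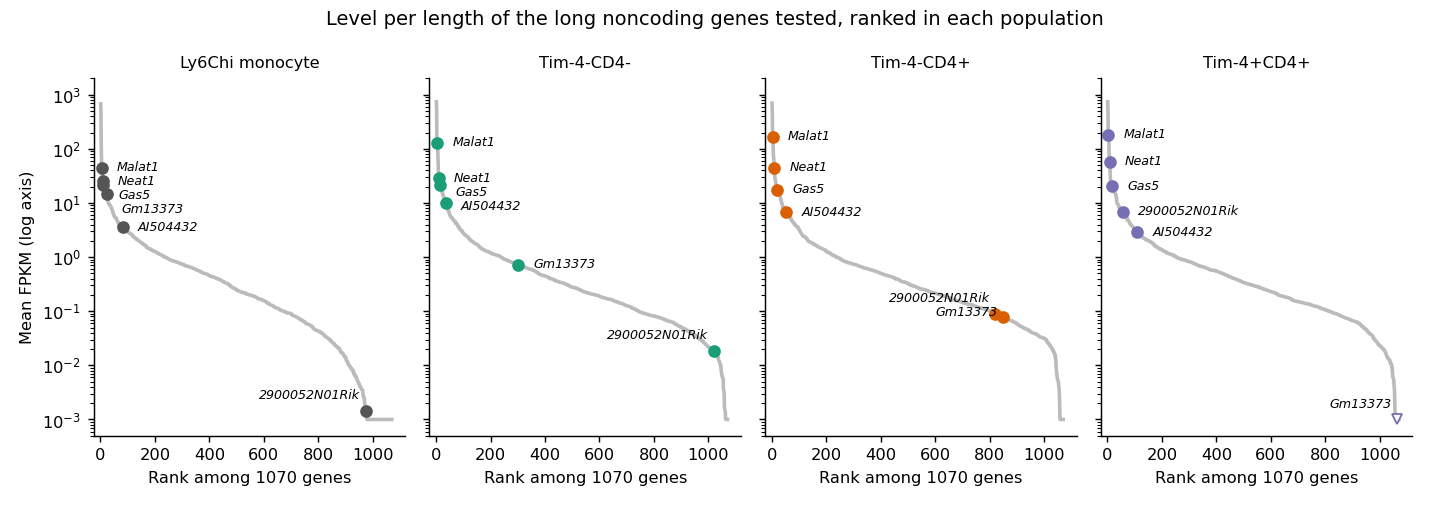
Mean FPKM (y axis, log scale, with values under 0.001 drawn at 0.001) of the 1070 long noncoding genes tested against their rank (x axis) in each population, drawn as a gray line with the 6 genes marked and an open triangle for the gene with 0 reads. Malat1, Neat1, and Gas5 stay near the top in all 4 populations, while 2900052N01Rik moves from rank 1019 in Tim-4-CD4- to rank 56 in Tim-4+CD4+ macrophages.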

How the data were processed

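Ly6Chi monocytes and 3 macrophage subsets were sorted by the authors, and stranded poly-A libraries were sequenced from both ends. After trimming (Trimmomatic 0.36) and alignment with STAR to GRCm38.p4, the authors counted unique reads per gene with HTSeq 0.6.1p1 on GENCODE vM11 and deposited raw counts, with no gene under 16 reads in total. Another 15 deposited columns hold the same counts divided by 1 factor per library and were not used. The genes, lists, and markers were chosen with earlier results of these data known. Populations were taken from the titles.

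Counts were analyzed with edgeR 4.0.16 in R 4.3.3, with TMM scaling, filterByExpr by population, and a quasi-likelihood fit over all 15 libraries, without a block. P-values were adjusted by the Benjamini-Hochberg method over 15802 genes per comparison, with a threshold of 0.05. Standard errors were derived from the F statistic, and 95% intervals from its t quantiles. Log2 CPM for correlations used a prior count of 2. Coding neighbors were the 2 nearest on each side, and some are not reported here. The 3 genes most like each gene, the 3 list members with the largest changes in Tim-4+CD4+ against Tim-4-CD4- macrophages that passed, the 5 long noncoding genes highest per length, and the 3 with the largest changes in each direction at a mean of at least 1 CPM were named, and further list members after their values were seen. Positions and exon lengths came from GENCODE M21 on GRCm38, which held 19421 of 19456 identifiers, since vM11 was not used here. Depth was 39388763 to 151510641 counts per library, and intervals and floors of 3 counts cover counting error only. On simulated counts for Tim-4+CD4+ against Tim-4-CD4- (15344 genes tested, 200 changed), edgeR called 193, of which 186 were changed, recovering 90% at 2-fold and 96% at 4-fold. Alternatives were DESeq2 1.42.0, relative log expression and upper-quartile scaling, all genes with at least 1 count, only the populations compared, replicate blocks, leaving out each library, the longest transcript, and Spearman's correlation.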

Additional observations from a re-analysis of the deposited data

Results flagged for a closer look

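Among 77 sets of 4 libraries of the 6 genes and their neighbors, 5 held a library far from the other 3, by Dixon's criterion at the 95% level, which chance gives in about 1 set in 20. AI504432 was at 28.3 CPM in Tim-4-CD4+ replicate 3, while the other libraries of that subset were at 39.2 to 41.2 CPM. Its neighbor Kcna3 was at 1.08 CPM in Tim-4+CD4+ replicate 1, compared with 6.70 to 7.497 CPM. Frmd8, beside Neat1, was at 76.2 CPM in Tim-4-CD4- replicate 2, compared with 56.7 to 59.5 CPM. Serpinc1, near Gas5, was at 0.241 CPM in Tim-4+CD4+ replicate 3, compared with 0.0947 to 0.117 CPM, which are differences of a few reads. Zbtb37, which overlaps Gas5, was at 17.2 CPM in Tim-4-CD4+ replicate 3, compared with 29.2 to 31.5 CPM, so that the same library was low in AI504432 and in Zbtb37.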

How the results depend on the processing

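Fold changes were recomputed under up to 22 alternatives. The number of genes called in Tim-4+CD4+ against Tim-4-CD4+ macrophages was 539, and 917 with DESeq2. On the simulated Tim-4+CD4+ and Tim-4-CD4- counts, 14.3% of the calls of DESeq2 were false, compared with 3.63% in edgeR. These counts were drawn with spreads that edgeR had estimated, and for a different comparison. They therefore do not show how many of the 917 calls are false. In Tim-4-CD4+ against Tim-4-CD4- macrophages, 1589 genes were called, and 1033 to 2203 when each library was left out, the lowest without Tim-4-CD4+ replicate 4. The log2 fold change of Gas5 between Tim-4-CD4+ macrophages and monocytes, -0.27, passed when only the 2 populations were fitted (-0.26) and with a replicate block that took the numbers from the descriptions (-0.31). It ran from -0.32 to -0.14 when each library was left out, and passed without Tim-4-CD4+ replicate 2 or Tim-4+CD4+ replicate 1. That of Malat1 in Tim-4+CD4+ against Tim-4-CD4- macrophages ran from 0.33 to 0.64. Of the 396 values of Neat1, Malat1, and Gas5 under alternatives, 12 changed sign, none of which passed, as for Gas5 between Tim-4+CD4+ macrophages and monocytes (-0.11 to 0.09). Replicate numbers in the titles and in the descriptions differ for Tim-4-CD4+ libraries, and same-numbered macrophage libraries deviated together with a correlation over 0.1 in 2 of 12 pairs by title and 4 of 12 by description, so the numbers were not taken to pair the samples. Of all 48 pairs of macrophage libraries from different subsets, 10 were over 0.1 and joined 11 libraries into 4 sets, none with 2 libraries of a subset. This is a hint from the data that no label used here gives, and no fit used these sets. With a replicate block, 431 (title) or 506 (description) genes were called between the CD4+ subsets, and no call of Neat1 or Malat1 changed. Of the 3 genes most like each gene by Pearson's correlation, none was among the first 3 by Spearman's for 5 of the genes and 1 was for Gas5. Depth limits Gm13373 in the CD4+ subsets and 2900052N01Rik in monocytes, where 15 and 2 reads were found in all.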

Other observations

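Other long noncoding genes with a mean of at least 1 CPM also differed between the subsets. In Tim-4+CD4+ against Tim-4-CD4- macrophages 64 were higher and 27 lower, and after 2900052N01Rik the largest rises were those of Gm19705 (2.66 on the log2 scale with a standard error of 0.33, adjusted p = 1.9e-05 in edgeR) and Bach2os (2.48, standard error 0.51, adjusted p = 0.0019), which lies antisense to the gene of the repressor Bach2. The largest falls after Gm13373 were those of E230016K23Rik (-4.27, standard error 0.67, adjusted p = 0.00018 from edgeR) and AI839979 (-3.56, standard error 0.39, adjusted p = 4.4e-06). AI839979 averaged 93.3 CPM in monocytes and 1.75 CPM in Tim-4-CD4-, 0.274 CPM in Tim-4-CD4+, and 0.141 CPM in Tim-4+CD4+ macrophages, an order also seen in Gm13373. In Tim-4-CD4+ against Tim-4-CD4- macrophages, Gm28884 (1.76, adjusted p = 1e-04 from edgeR) and 2010016I18Rik (1.75, adjusted p = 0.0025) rose most after 2900052N01Rik. AI839979 (-2.615, adjusted p = 0.00016 from edgeR) and E230016K23Rik (-2.35, adjusted p = 0.013) fell most there after Gm13373. Between the CD4+ subsets, 7 were higher and 4 lower, with rises of Gm19705 (1.42, adjusted p = 0.014 from edgeR) and 2610203C22Rik (1.20, adjusted p = 0.014) and a fall of Foxd2os (-1.16, adjusted p = 0.029).

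Of 40 further long noncoding genes with known roles, 27 were tested, and 5 were higher and 3 lower in Tim-4+CD4+ than in Tim-4-CD4- macrophages (29.6%, compared with 23.1% of all genes, median log2 fold change 0.07). Mirt1 rose by 2.43 on the log2 scale (adjusted p = 2.9e-05), Crnde by 2.34 (adjusted p = 0.00032 from edgeR), and Firre, an X-linked RNA of nuclear organization, by 1.12 (adjusted p = 7.4e-05 from edgeR). Mir155hg, the host gene of the inflammatory microRNA miR-155, fell by 1.98 (adjusted p = 0.0066), from 2.23 to 0.561 CPM, and Hotairm1 fell by 1.93 (adjusted p = 0.00033 from edgeR). Of the 18 early response and stress genes that tissue dissociation can induce, 7 were lower and none higher in Tim-4+CD4+ than in Tim-4-CD4- macrophages (38.9%, compared with 23.1% of all genes, median log2 fold change -0.15). Egr2 fell by 1.27 (adjusted p = 6.9e-06 from edgeR), Nr4a1 by 0.80 (adjusted p = 0.00072), and Egr1 by 0.65 (adjusted p = 0.0021). The summed level of the 18 genes was 35291 to 43360 CPM in Tim-4-CD4- and 29577 to 35707 CPM in Tim-4+CD4+ libraries, compared with 2459 to 2579 CPM in monocytes. The part of this level in the differences of Neat1 and Malat1 was not tested.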
